A study of Mus musculus with 4 samples.

Results

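Fibroblast growth factor (FGF) signalling in the embryonic mouse brain is described here through 38 protein-coding genes, chosen by name from the 20421 genes of the table: the Fgf ligands, the receptors Fgfr1 to Fgfr4 and Fgfrl1, the FGF-binding proteins, the Spry, Spred, Etv and Dusp feedback genes, and the Flrt genes. The rule goes by gene name and uses no measured value. The tissue was brain of C57BL/6 embryos at embryonic day 15. The transgenic embryos carried FOXM1f/+;Nestin-Cre, a FOXM1 allele combined with the Nestin-Cre driver, a Cre recombinase active in neural progenitors, and the controls were labelled WT. The title of 1 WT sample names nestin and that of the other foxm1, so the controls may each carry 1 of the alleles. The design text speaks of triplicates and 2 samples are listed per genotype, but the table holds 1 column of read counts per genotype, and how many embryos stand behind each column is unknown. Below, transgenic brain means the FOXM1f/+;Nestin-Cre column and WT brain the WT column. With 1 library per genotype no difference could be checked against replicates, and no test of the genotype was possible.

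FGFs are secreted proteins that bind receptor tyrosine kinases together with heparan sulfate chains. The bound receptor signals through the adaptor Frs2, Ras and the kinase ERK, and ERK switches on genes such as the Spry, Spred and Dusp genes, whose products damp the pathway, and the transcription factors Etv1, Etv4 and Etv5. In the developing forebrain FGFs from the rostral pole pattern the cortex along its length and keep progenitors dividing. One subgroup of the family, Fgf11 to Fgf14, is not secreted and acts inside neurons on sodium channels.

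The libraries held 17856653 reads (transgenic) and 17543705 reads (WT). Levels are CPM, read counts scaled to a common library total. Ratios are transgenic over WT, and the range after each ratio is its 95% exact interval, which covers counting error only. Mouse Foxm1 had 1289 reads in transgenic brain and 1139 in WT brain, a ratio of 1.11 (1.03 to 1.21), and a human transgene was not measured separately. The libraries also differed in sex content and in choroid plexus. Xist had 9628 reads in transgenic brain and 5 in WT brain, while 4 Y-linked genes had 0 reads in transgenic brain and 202 to 1266 in WT brain. The choroid plexus markers, 5 of 6 found in the table, summed to 24.2 CPM in transgenic brain and 703 CPM in WT brain. Ttr held 177 of these reads in transgenic brain and 11255 in WT brain. Clic6, Folr1 and Aqp1 were lower as well, while Otx2 had 211 reads in transgenic brain and 223 in WT brain, a ratio of 0.930 (0.766 to 1.13). Sex and genotype cannot be told apart for any gene below. Neuron and radial glia markers were abundant in both libraries, as their values below show.

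For each of 3 genes 1 promoter window is shown. The genes are Fgfr3, the receptor whose interval excluded 1, Fgf9, a ligand that differed the other way, and Etv5, the most abundant Etv gene by reads. Etv5 differed little between the libraries, 1.12-fold lower (1.01 to 1.23) in transgenic brain. Of the genes that averaged 10 CPM or more, 17.2% had a ratio at least as low. Each window runs from 250 bases before to 50 bases after a RefSeq transcript start (GRCm38.p6), in transcript direction. Capitals mark CpG sites in Fgfr3 and Fgf9, and the forkhead motif GTAAACA in Etv5. The windows are chr5:33721474-33721773 on the plus strand, chr14:58072436-58072735 on the plus strand and chr16:22439521-22439820 on the minus strand.
Fgfr3: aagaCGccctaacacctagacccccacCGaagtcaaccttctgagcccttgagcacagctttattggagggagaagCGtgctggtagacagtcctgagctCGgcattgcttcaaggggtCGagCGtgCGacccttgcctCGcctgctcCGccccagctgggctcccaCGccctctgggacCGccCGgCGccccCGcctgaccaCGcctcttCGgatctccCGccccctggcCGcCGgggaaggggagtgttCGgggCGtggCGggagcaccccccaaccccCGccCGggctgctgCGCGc
Fgf9: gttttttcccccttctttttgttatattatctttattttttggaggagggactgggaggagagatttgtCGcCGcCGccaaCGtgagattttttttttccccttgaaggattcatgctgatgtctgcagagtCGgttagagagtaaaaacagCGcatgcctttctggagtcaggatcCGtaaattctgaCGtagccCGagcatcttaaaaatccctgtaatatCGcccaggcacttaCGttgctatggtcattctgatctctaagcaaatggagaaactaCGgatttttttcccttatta
Etv5: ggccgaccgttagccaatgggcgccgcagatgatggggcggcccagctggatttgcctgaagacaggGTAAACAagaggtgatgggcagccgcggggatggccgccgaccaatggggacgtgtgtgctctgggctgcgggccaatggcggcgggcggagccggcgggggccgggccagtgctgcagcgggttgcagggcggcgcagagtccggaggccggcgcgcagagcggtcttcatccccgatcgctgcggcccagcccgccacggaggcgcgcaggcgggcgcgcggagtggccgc
The Fgfr3 window holds 26 CpG sites with 69.7% G and C, and the Fgf9 window 12 CpG sites with 42.7% G and C. Over 32851 mouse promoter windows the median was 7 CpG sites, so both lie above the typical window and Fgfr3 lies in CpG-rich sequence. The forkhead match in the Etv5 window shown starts 183 bases upstream of its transcript start. A second Etv5 window, at another transcript start (chr16:22438319-22438618), holds 0 matches. A second Fgfr3 window (chr5:33722056-33722355) holds 30 CpG sites.

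Promoter windows were found for 29 of the 38 genes. The motifs of 3 kinds of factor were searched on both strands, and none contains another. The forkhead motif GTAAACA stood in windows of 2 of the 29 genes, Etv5 and Fgf10, and in 4.05% of the 27025 genes with a window. The ETS motif CCGGAAG, of the kind bound by Etv factors, stood in 1 of the 29, Fgfrl1, and in 9.93% of all genes. The cell cycle element TTTGAA stood in 4 of the 29, Fgf3, Fgf11, Fgf23 and Flrt2, and in 20.2% of all genes. A match describes letters in a window and is not evidence of binding.

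**Figure D1:**
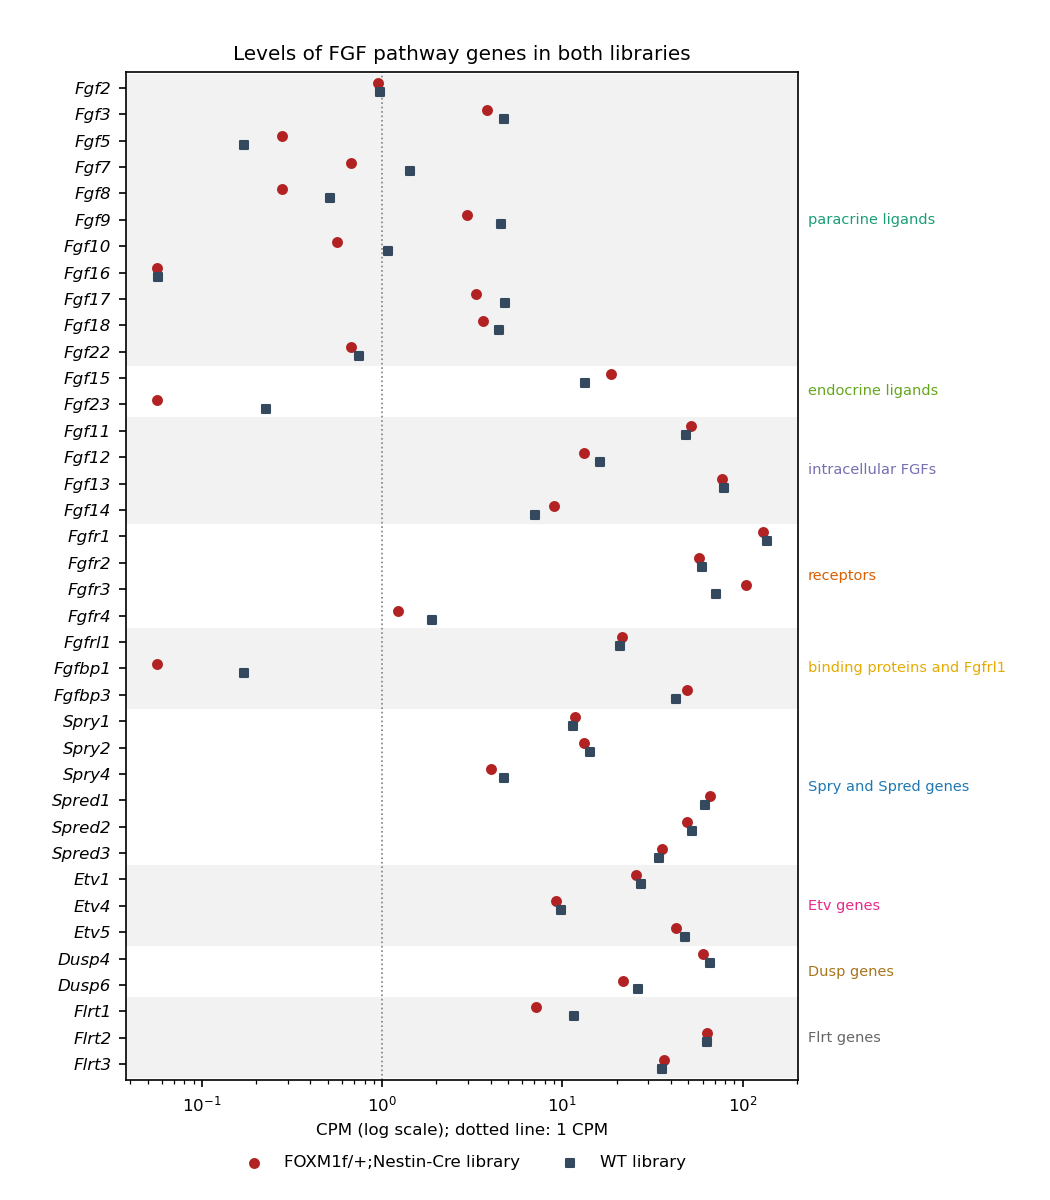
CPM of each gene on a log axis, one row per gene, grouped by role. Red circles are the FOXM1f/+;Nestin-Cre library and dark squares WT. The receptors and feedback genes lie mostly above 10 CPM, the secreted ligands other than Fgf15 below 5 CPM, and the widest separation among abundant genes is at Fgfr3.

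Of the 38 genes, 30 averaged 1 CPM or more over the libraries. A difference was called when the ratio reached 1.5-fold in either direction. By that rule 0 of the 30 were higher in transgenic brain, where 2.53% of all 14557 genes tested were, and 4 were lower, where 5.23% of all were. The 4 were Fgf7, Fgf9, Fgfr4 and Flrt1. The counting interval lay wholly above 1 for 3 of the 30 genes (Fgf15, Fgfr3 and Fgfbp3), against 16.5% of all genes, and wholly below 1 for 8, against 19.2% of all. The 8 were Fgf7, Fgf9, Fgf12, Fgf17, Etv5, Dusp4, Dusp6 and Flrt1. These counts depended on how the libraries were scaled. TMM and RLE scaling set the libraries level over the bulk of genes instead of by total reads. With TMM scaling, 4 intervals lay above 1 and 7 below, against 18.8% and 17.1% of all genes, and with RLE scaling 5 lay above and 6 below, against 20.3% and 16.1% of all. Fgf14 came to lie above 1 under both scalings and Spred1 under RLE, Dusp4 no longer lay below 1 under either, and Etv5 no longer did under RLE. At 2-fold 0 of the 30 were higher, where 0.522% of all genes were, and 1 was lower (Fgf7), where 1.83% of all were. Of the 20 genes that averaged 10 CPM or more, 0 passed 1.5-fold in either direction, where 0.335% of all genes were higher and 0.848% lower. Without a minimum 1 of 38 was higher (Fgf5) and 8 were lower, against 9.27% and 14.3% of all genes. The median log2 ratio of the 30 genes was -0.09, with 11 above 0 and 19 below, and the median of all genes with reads in both libraries was -0.01. RLE scaling and a minimum of 1 CPM in both libraries each left 3 of the 4 calls, the first without Fgfr4 and the second without Fgf7. All 4 calls were of genes with a mean under 10 CPM, where small counts give wide ratios, and Fgf7 reached the minimum only through WT brain.

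**Figure D2:**
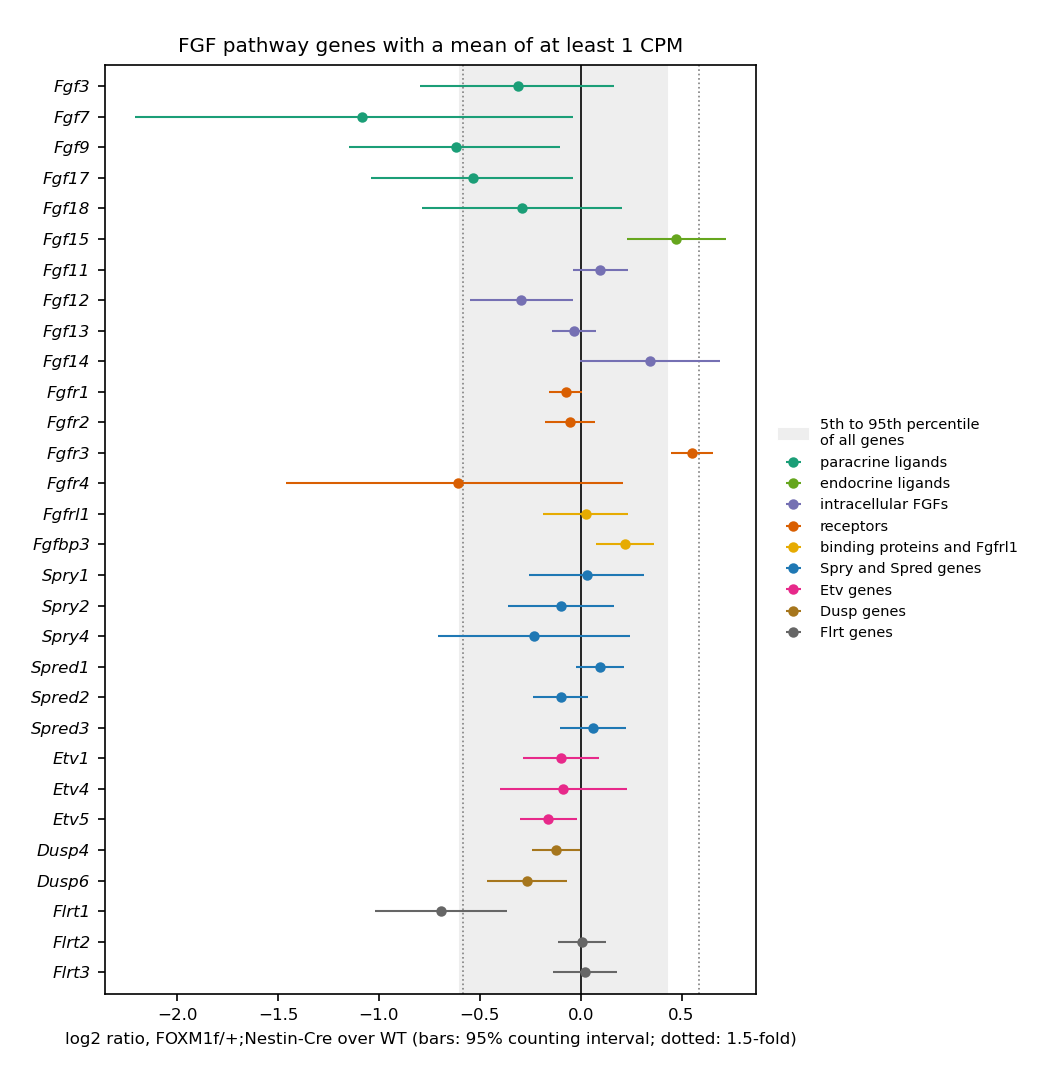
Log2 ratio, FOXM1f/+;Nestin-Cre over WT, of the 30 genes that averaged 1 CPM or more. Bars are 95% counting intervals, the grey band spans the 5th to the 95th percentile of all genes (-0.60 to 0.43), and dotted lines mark 1.5-fold. Fgfr3 and Fgf15 lie to the right of the band, and Fgf7, Fgf9, Fgfr4 and Flrt1 to its left.

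The receptors are single-pass tyrosine kinases that differ in the ligands they bind and in where they are made. Fgfr3, which marks progenitors of the ventricular zone in the embryonic cortex, was the receptor that set the libraries apart. Fgfr3 (ENSMUSG00000054252; chromosome 5, 33721674 to 33737068, plus strand, GRCm38) had 1869 reads in transgenic brain and 1253 in WT brain. That is 104.6 CPM against 71.4 CPM, 1.47-fold higher in transgenic brain (1.36 to 1.58), just under the 1.5-fold rule. Of the 10138 genes that averaged 10 CPM or more, 49 (0.483%) had a ratio at least as high. G630022F23Rik, an annotated locus on the opposite strand, overlaps 998 of the 7158 exon bases of Fgfr3 and had 40 reads in transgenic brain and 37 in WT brain, few beside those of Fgfr3.

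Fgfr1, the most widely made receptor of the forebrain, had 2332 reads in transgenic brain and 2413 in WT brain, a ratio of 0.950 (0.897 to 1.01). Fgfr2, which radial glia and glial precursors also make, had 1030 reads in transgenic brain and 1050 in WT brain, a ratio of 0.964 (0.884 to 1.05). Exons of Ctbp2, on the same strand, overlap 314 of the 10328 exon bases of Fgfr2, and Ctbp2 had 1073 reads in transgenic brain and 804 in WT brain, so the Fgfr2 value is uncertain. The intervals of Fgfr1 and Fgfr2 include 1, and both lie wholly below the interval of Fgfr3. Fgfr4, the least abundant receptor here, had 22 reads in transgenic brain and 33 in WT brain, 1.53-fold lower (0.864 to 2.75). Its interval includes 1, so its place past 1.5-fold was within counting error.

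The receptor mix differed between the libraries, a comparison that does not depend on how the libraries are scaled. Fgfr3 took 35.6% (34.3 to 36.9, exact Clopper-Pearson) of the 5253 receptor reads in transgenic brain, and 26.4% (25.1 to 27.7) of the 4749 in WT brain. Fgfr1 took 44.4% (43.0 to 45.7) in transgenic brain and 50.8% (49.4 to 52.2) in WT brain. For Fgfr2 the shares were 19.6% (18.5 to 20.7) in transgenic brain and 22.1% (20.9 to 23.3) in WT brain. For each of these 3 genes the intervals do not overlap. The shares of a library add up to the whole, so a larger Fgfr3 share leaves smaller shares to the others. The Fgfr1 and Fgfr2 shares are thus no separate evidence of a difference. For Fgfr4 the shares were 0.419% in transgenic brain and 0.695% in WT brain. Per kilobase of merged exons, the Fgfr3 level was 1.11 times that of Fgfr1 (1.04 to 1.18) in transgenic brain and 0.716 times (0.669 to 0.767) in WT brain. Fgfr3 was thus the highest receptor per length in transgenic brain and Fgfr1 in WT brain, while by reads Fgfr1 was highest in both. Summed, the receptors were 1.09-fold higher (1.04 to 1.13) in transgenic brain. Without Fgfr3 the sum was 1.05-fold lower (1.003 to 1.10), and its interval included 1 under TMM and RLE scaling. The excess of the sum thus came with Fgfr3.

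**Figure D3:**
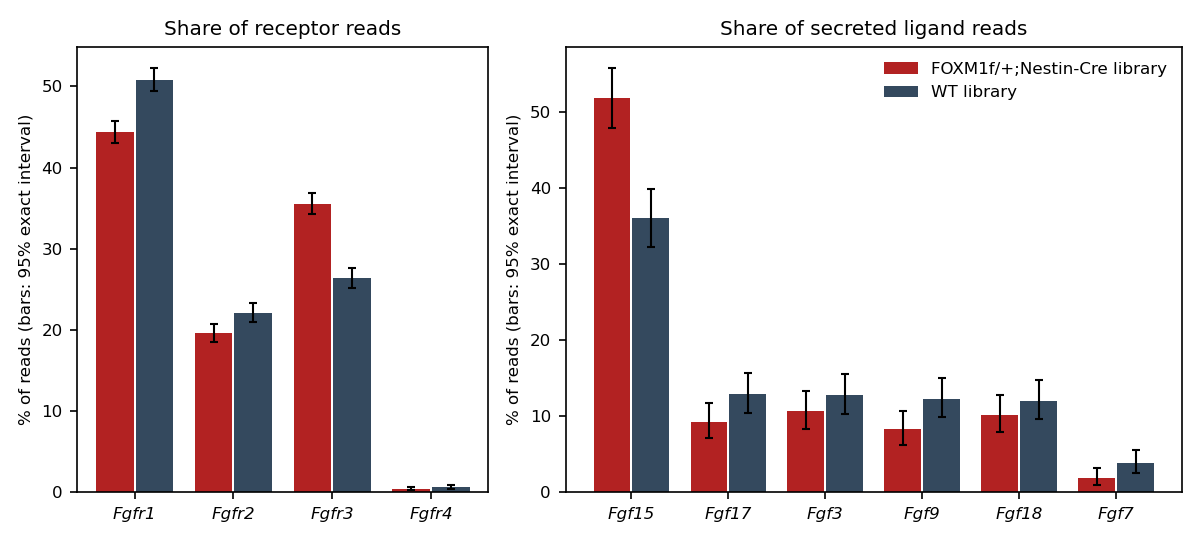
Share of reads taken by each receptor (left) and by the 6 secreted ligands that averaged 1 CPM or more (right), with 95% exact intervals. Red bars are the FOXM1f/+;Nestin-Cre library and dark bars WT. The shares of Fgfr3 and Fgf15 are larger in the FOXM1f/+;Nestin-Cre library, 35.6% against 26.4% and 51.8% against 36.0%.

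Markers of apical radial glia were mostly higher in transgenic brain, as Fgfr3 was. Of 9 markers tested, 6 (66.7%) had intervals above 1 and none had one below, against 16.5% and 19.2% of all genes. The 10 in the list summed to 2244 CPM in transgenic brain and 1842 CPM in WT brain, a ratio of 1.22 (1.20 to 1.24). Hes5, the highest of the 9, had a ratio of 1.49 (1.27 to 1.74), close to that of Fgfr3. The others with intervals above 1 had smaller ratios. These were Vim at 1.32 (1.29 to 1.36), Nes at 1.23 (1.19 to 1.28) and Fabp7 at 1.19 (1.16 to 1.22). Prom1 stood at 1.15 (1.02 to 1.29) and Sox2 at 1.13 (1.08 to 1.19). Pax6, Hes1 and Slc1a3 had intervals that include 1. Neuron markers summed to 7168 CPM in transgenic brain and 7712 CPM in WT brain, 1.08-fold lower (1.07 to 1.08). Of their 9 intervals 0 lay above 1 and 7 (77.8%) below. With RLE scaling 1 lay above and 6 (66.7%) below, against 20.3% and 16.1% of all genes. Genes with many reads have narrow intervals that exclude 1 at small differences. Tubb3, with 51844 reads in transgenic brain and 51704 in WT brain, lay below 1 at a ratio of 0.985 (0.973 to 0.997). Oligodendrocyte precursor, endothelial and microglia markers were lower in sum, at ratios of 0.781 (0.724 to 0.842), 0.888 (0.841 to 0.938) and 0.784 (0.703 to 0.874). None of their intervals lay above 1. Below 1 lay 4 of 6 (66.7%), 3 of 7 (42.9%) and 3 of 6 (50%), against 19.2% of all genes. The lists were split. Olig2 stood at 0.976 (0.869 to 1.10) and Pdgfra at 0.438 (0.336 to 0.567), C1qa at 1.05 (0.809 to 1.36) and P2ry12 at 0.497 (0.341 to 0.716). No marker found in the table was at 0 reads. The part of cell composition in the Fgfr3 difference was not tested, and in RNA of whole tissue fewer cells of a type and less RNA per cell cannot be told apart.

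Among secreted ligands Fgf15, the mouse counterpart of human FGF19, is made by progenitors of the embryonic forebrain and opposes the patterning action of Fgf8. Fgf15 (ENSMUSG00000031073; chromosome 7, 144896531 to 144900953, plus strand) had 331 reads in transgenic brain and 234 in WT brain. That is 18.5 CPM against 13.3 CPM, 1.39-fold higher (1.17 to 1.65). Of the 10138 genes that averaged 10 CPM or more, 99 (0.977%) had a ratio at least as high. It supplied more of the secreted ligand reads in transgenic brain, 51.8% (47.8 to 55.7) of 639, than in WT brain, 36.0% (32.3 to 39.8) of 650. An antisense gene, Gm26793, overlaps 761 of its 3058 exon bases and had 47 reads in transgenic brain and 36 in WT brain. Without knowledge of the strand setting, reads of Fgf15 and of its antisense partner cannot be told apart.

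Fgf3 lies beside Fgf15 (chromosome 7, 144838083 to 144844436, plus strand) and did not share its direction. This ligand, made at patterning centres of the brain, had 68 reads in transgenic brain and 83 in WT brain, 1.24-fold lower (0.891 to 1.74). Of the reads of this neighbouring pair, Fgf15 took 83.0% (78.9 to 86.5) in transgenic brain and 73.8% (68.6 to 78.6) in WT brain. The lower end of the interval in transgenic brain, 78.9, lies just above the upper end in WT brain, 78.6.

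Fgf8, Fgf17 and Fgf18 form a subfamily whose members come from the rostral patterning centre. Fgf17, which specifies frontal cortex, had 59 reads in transgenic brain and 84 in WT brain, 1.45-fold lower (1.03 to 2.06). Fgf18, made also by cortical neurons, had 65 reads in transgenic brain and 78 in WT brain, 1.22-fold lower (0.868 to 1.72). Fgf8, the organiser signal itself, had 5 reads in transgenic brain and 9 in WT brain, a ratio of 0.546 (0.144 to 1.81). All 3 ratios were below 1, and only that of Fgf17 was so beyond counting error.

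Fgf9 is made by neurons and acts on Fgfr3 among other receptors. It had 53 reads in transgenic brain and 80 in WT brain (chromosome 14, 58070547 to 58112720, plus strand), 1.54-fold lower (1.07 to 2.22). Its close relative Fgf16 had 1 read in each library, at or under the floor of 3 counts, so no ratio is given.

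The ligands of the Fgf7 subfamily, Fgf7, Fgf10 and Fgf22, act on the epithelial form of Fgfr2. Fgf7 had 12 reads in transgenic brain and 25 in WT brain, 2.12-fold lower (1.03 to 4.63). Fgf10, which also times radial glia differentiation, had 10 reads in transgenic brain and 19 in WT brain, 1.93-fold lower (0.856 to 4.66). Fgf22, a presynaptic organiser, had 12 reads in transgenic brain and 13 in WT brain, 1.10-fold lower (0.464 to 2.64). Only the interval of Fgf7 excluded 1. Exons of Rnf126, a gene with 1962 reads in transgenic brain and 2188 in WT brain, overlap 82 bases of Fgf22 on the opposite strand, so the few Fgf22 reads are uncertain. Meningeal and pericyte markers, which mark mesenchymal cells, summed to 88.4 CPM in transgenic brain and 112.5 CPM in WT brain, 1.27-fold lower (1.19 to 1.36). Of their 8 intervals 1 lay above 1 and 5 below (12.5% and 62.5%), against 16.5% and 19.2% of all genes. Rgs5 held 896 of the 1578 reads in transgenic brain and 1049 of the 1974 in WT brain. It was 1.19-fold lower (1.09 to 1.30). Col1a1 was 3.15-fold lower (2.08 to 4.89) and Col1a2 2.54-fold lower (1.93 to 3.38). Foxd1 was 2.19-fold lower (1.10 to 4.61) and Col3a1 1.38-fold lower (1.05 to 1.82). Foxc1 was 1.63-fold higher (1.12 to 2.39), and the intervals of Dcn and Pdgfrb included 1. The part of mesenchymal cells in the Fgf7 value was not tested.

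The other secreted ligands were near the limit of detection. Fgf2, the classic mitogen of cortical progenitors in culture, had 17 reads in each library, and 640 of its 6782 exon bases overlap Nudt6 on the opposite strand. Fgf5 had 5 reads in transgenic brain and 3 in WT brain, and Fgf23, a bone hormone of phosphate balance, had 1 in transgenic brain and 4 in WT brain. At this depth no difference was detectable for these 3 genes. The 8 members under a mean of 1 CPM, Fgfbp1 among them, held 52 reads in all in transgenic brain and 69 in WT brain.

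Summed over all 13 secreted ligands, the libraries held 639 reads (transgenic) and 650 reads (WT), a ratio of 0.966 (0.865 to 1.08). Without Fgf15 the sum was 308 reads in transgenic brain and 416 in WT brain, 1.37-fold lower (1.18 to 1.60). Fgf15 was left out because it was higher, so the direction of this second sum is partly fixed by that choice. Of the 6 secreted ligands that averaged 1 CPM or more, 1 interval lay above 1, 3 lay below and 2 spanned it. Of all genes, 16.5% lay above and 19.2% below. Fgf7, among the 3 below, passed the minimum only through WT brain.

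The intracellular FGFs bind voltage-gated sodium channels, and among them Fgf13 and Fgf11 had more reads than any secreted ligand. Fgf13, which also binds microtubules in migrating neurons, had 1373 reads in transgenic brain and 1379 in WT brain, a ratio of 0.978 (0.907 to 1.05). Fgf11 had 930 reads in transgenic brain and 854 in WT brain, a ratio of 1.07 (0.974 to 1.18). Per kilobase Fgf13 stood 1.12 times (1.03 to 1.22) above Fgf11 in transgenic brain and 1.22 times (1.12 to 1.33) in WT brain, the same order in both. Fgf12 had 235 reads in transgenic brain and 283 in WT brain, 1.23-fold lower (1.03 to 1.46). Fgf14, whose loss causes ataxia, had 160 reads in transgenic brain and 124 in WT brain, 1.27-fold higher (0.996 to 1.62), with an interval wholly above 1 under TMM (1.01 to 1.63) and RLE scaling (1.01 to 1.64). The group's sum had a ratio of 1.004 (0.951 to 1.06), so members on both sides of 1 balanced.

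FGF-binding proteins free FGFs from heparan sulfate. Fgfbp3 had 884 reads in transgenic brain and 746 in WT brain, 1.16-fold higher (1.05 to 1.29). Its level per kilobase of exon was 27.9 CPM in transgenic brain and 24.0 CPM in WT brain. It was the highest of the 38 genes per length in transgenic brain, 1.26 times Dusp4 (1.15 to 1.38), and in WT brain the pair did not differ beyond counting error, at 0.996 times (0.907 to 1.09). Fgfbp1 had 1 read in transgenic brain and 3 in WT brain. Fgfrl1, a receptor without a kinase domain, had 382 reads in transgenic brain and 369 in WT brain, a ratio of 1.02 (0.879 to 1.18). The group's excess of 1.11-fold (1.03 to 1.21) thus came with Fgfbp3.

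The feedback genes report on ERK activity in many tissues. As a group of 11 they held 6077 reads in transgenic brain and 6258 in WT brain, 1.05-fold lower (1.01 to 1.09). With RLE scaling the interval of this sum included 1 (0.937 to 1.01 as a ratio). Of the 11 intervals 0 lay above 1, 3 below and 8 spanned it, where 16.5% of all genes lay above and 19.2% below. Under RLE the intervals of Dusp4 and Etv5 included 1, and that of Spred1 lay just above it. None of the 11 reached 1.5-fold, where 2.53% of all genes were higher and 5.23% lower. The largest difference among the 11 was that of Dusp6.

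The phosphatase Dusp6, which switches off ERK in the cytoplasm and is a standard readout of FGF signalling in embryos, had 388 reads in transgenic brain and 459 in WT brain (chromosome 10, 99263231 to 99267489, plus strand). That is 21.7 CPM against 26.2 CPM, 1.20-fold lower (1.05 to 1.38), and 7.59% of the genes that averaged 10 CPM or more had a ratio at least as low. Dusp4, its nuclear relative, had 1083 reads in transgenic brain and 1158 in WT brain, 1.09-fold lower (1.001 to 1.18). Both intervals lay below 1, that of Dusp4 barely, with a ratio of up to 0.999, and it included 1 under TMM (up to 1.01) and RLE scaling (up to 1.02). Per kilobase Dusp4 was 3.19 times (2.84 to 3.59) as high as Dusp6 in transgenic brain and 2.88 times (2.59 to 3.22) in WT brain.

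The Etv genes encode ETS factors that carry the FGF signal into transcription. Etv5 had 767 reads in transgenic brain and 842 in WT brain, 1.12-fold lower (1.01 to 1.23). Etv1, which marks layer 5 neurons in the cortex, had 456 reads in transgenic brain and 480 in WT brain, a ratio of 0.933 (0.819 to 1.06). Etv4 had 165 reads in transgenic brain and 172 in WT brain, a ratio of 0.943 (0.757 to 1.17). All 3 ratios were below 1, and the sum was 1.10-fold lower (1.02 to 1.18). With RLE scaling the intervals of Etv5 (up to 1.01 as a ratio) and of the sum (up to 1.0002) included 1. Etv5 was 3.52 times (2.97 to 4.19) as high per kilobase as Etv4 in transgenic brain and 3.70 times (3.14 to 4.39) in WT brain.

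The Sprouty and Spred proteins restrain Ras and Raf below the receptor, and the intervals of all 6 genes included 1 on the authors' CPM. Spry1 had 210 reads in transgenic brain and 202 in WT brain, a ratio of 1.02 (0.838 to 1.25). Spry2 had 237 reads in transgenic brain and 249 in WT brain, a ratio of 0.935 (0.779 to 1.12). Spry4, the least abundant, had 72 reads in transgenic brain and 83 in WT brain, a ratio of 0.852 (0.613 to 1.18). The Spred genes were the more abundant of these inhibitors. Spred1 had 1182 reads in transgenic brain and 1087 in WT brain, a ratio of 1.07 (0.983 to 1.16), with an interval that lay just above 1 under RLE scaling (1.0006 to 1.18). Spred2 had 877 reads in transgenic brain and 923 in WT brain, a ratio of 0.934 (0.850 to 1.03), and Spred3 had 640 reads in transgenic brain and 603 in WT brain, a ratio of 1.04 (0.932 to 1.17). Over the 6 genes the ratio was 1.005 (0.956 to 1.06).

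The Flrt proteins are leucine-rich membrane proteins that bind FGF receptors and also act as adhesion and guidance cues for migrating cortical neurons. Mice that lack both Flrt1 and Flrt3 form folds in the normally smooth cortex, and the series' title concerns cortical folding. Any link between the Flrt values below and folding was not tested. Flrt1 (ENSMUSG00000047787; chromosome 19, 7092014 to 7105729, minus strand) had 128 reads in transgenic brain and 203 in WT brain. That is 7.17 CPM against 11.6 CPM, 1.61-fold lower (1.29 to 2.03), and it was the call with the most reads. Flrt3 had 652 reads in transgenic brain and 631 in WT brain, a ratio of 1.02 (0.909 to 1.13). Flrt2, which repels neurons through Unc5 receptors, had 1136 reads in transgenic brain and 1111 in WT brain, a ratio of 1.005 (0.924 to 1.09). The interval of Flrt1 lies wholly below those of Flrt2 and Flrt3. Per kilobase Flrt1 was also the lowest of the 3, at 1.22 CPM in transgenic brain and 1.97 CPM in WT brain. The level of Flrt2 was 8.24 CPM per kilobase in transgenic brain and 8.20 in WT brain, and that of Flrt3 7.50 in transgenic brain and 7.39 in WT brain.

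**Figure D4:**
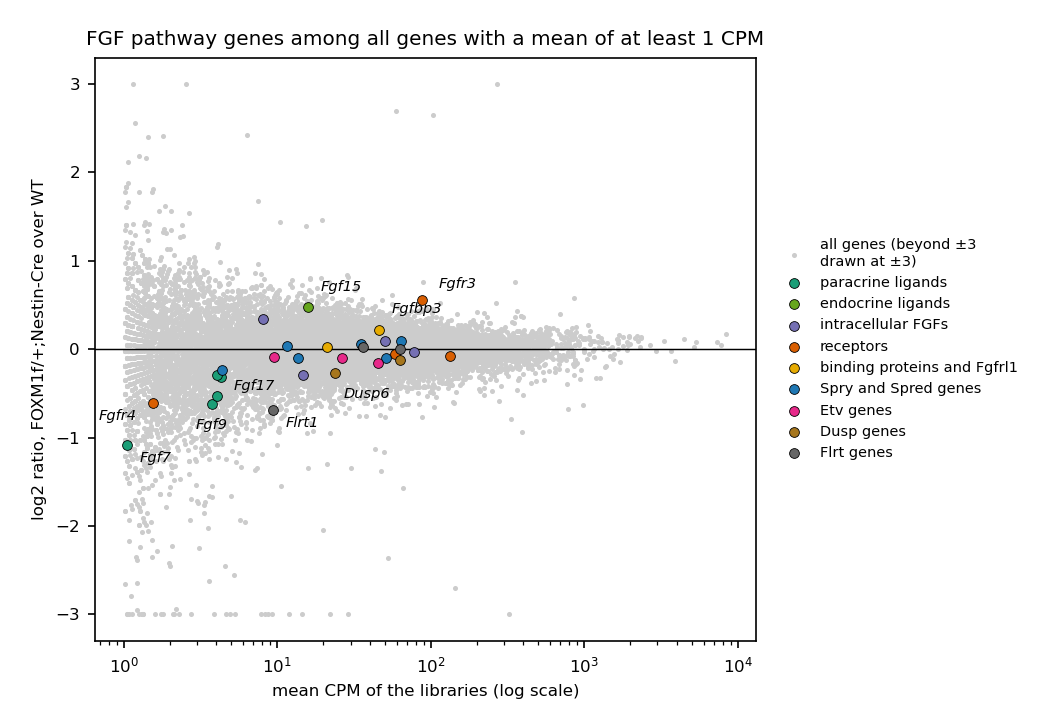
Log2 ratio against mean CPM (log axis) for all genes that averaged 1 CPM or more with reads in both libraries (grey) and for the FGF pathway genes (coloured by role). Fgfr3 (0.55) lies at the upper edge of the grey cloud at its level, while Fgf15 (0.47) and Flrt1 (-0.69) lie where the cloud of less abundant genes is wider.

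The rest of the pathway was read from 4 lists. In the signal relay below the receptors, all 28 genes were tested, with 1 interval above 1, 8 below and 19 spanning it. That is 3.57% above and 28.6% below, against 16.5% and 19.2% of all genes. None passed 1.5-fold, where 2.53% of all genes were higher and 5.23% lower. With TMM scaling 2 lay above and 5 below (7.14% and 17.9%), against 18.8% and 17.1% of all genes. With RLE scaling 3 lay above and 5 below (10.7% and 17.9%), against 20.3% and 16.1% of all. The median log2 ratio was -0.03. Hras, a Ras GTPase, had 1479 reads in transgenic brain and 1934 in WT brain, 1.33-fold lower (1.24 to 1.43). The scaffold Ksr1 was 1.18-fold lower (1.05 to 1.33) and the docking protein Gab2 1.16-fold lower (1.05 to 1.29). The adaptor Grb2, the most abundant by CPM, had 216 CPM in transgenic brain and 227 CPM in WT brain. The median of the relay thus lay close to the median of all genes, with Hras the relay gene farthest from it.

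Among coreceptors and heparan sulfate genes, 21 of 25 were tested, with 3 intervals above 1, 8 below and 10 spanning it. That is 14.3% above and 38.1% below, against 16.5% and 19.2% of all genes. Of the 21, 2 passed 1.5-fold, both lower, where 5.23% of all genes were. Their median log2 ratio was -0.02, and 0.00097 with RLE scaling. Sulf1, an extracellular enzyme that trims heparan sulfate and weakens FGF binding, had 139 reads in transgenic brain and 565 in WT brain, 4.14-fold lower (3.43 to 5.02). The glypican Gpc3 had 147 reads in transgenic brain and 242 in WT brain, 1.68-fold lower (1.36 to 2.07). The syndecan Sdc3, the most abundant coreceptor, was 1.28-fold lower (1.23 to 1.32), and the sulfotransferase Hs2st1 was 1.22-fold higher (1.14 to 1.30). The difference in Sulf1 exceeded that of any of the 30 FGF genes, and the summed choroid plexus markers were lower as well, by 29.1-fold (26.4 to 32.1). The part of the plexus in the Sulf1 value was not tested.

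Of the ERK-responsive genes outside the family, 16 of 17 were tested, with 3 intervals above 1, 1 below and 12 spanning it. That is 18.8% above and 6.25% below, against 16.5% and 19.2% of all genes. Their median log2 ratio was 0.05. The cyclin Ccnd1 had 561 reads in transgenic brain and 443 in WT brain, 1.24-fold higher (1.10 to 1.41). The Eph receptor Epha4, the most abundant of them, was 1.09-fold higher (1.03 to 1.15) and Shisa2, of a family whose founding member in the frog retains FGF and Wnt receptors in the cell, 1.15-fold higher (1.03 to 1.27). Fos, an early response gene, had 12 reads in transgenic brain and 28 in WT brain, 2.37-fold lower (1.17 to 5.13), and passed the minimum only through WT brain. The other 3 intervals that excluded 1 all lay above it. Among those that spanned 1, Egr1 had a ratio of 0.713 (0.504 to 1.004), with 61 reads in transgenic brain and 84 in WT brain. Dusp5 had a ratio of 0.684 (0.443 to 1.05) and Ier3 one of 0.689 (0.448 to 1.05), also on few reads. Phlda1, at 1.17 (0.882 to 1.56), and Myc, at 1.06 (0.929 to 1.20), lay on the other side. The list thus had no single direction.

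All 9 cortical area genes were tested. The interval lay above 1 for 2 of them, below 1 for 3 and on both sides for 4, with a median log2 ratio of 0.02. That is 22.2% above and 33.3% below, against 16.5% and 19.2% of all genes. Emx2, a homeobox gene of caudal cortex that Fgf8 represses, had 825 reads in transgenic brain and 618 in WT brain, 1.31-fold higher (1.18 to 1.46). Sp8, a zinc finger factor of the rostral patterning centre, had 286 reads in transgenic brain and 392 in WT brain, 1.40-fold lower (1.19 to 1.63). The related factor Sp9 was 1.13-fold lower (1.05 to 1.22). The caudal gene Emx2 and the rostral ligand Fgf17 with Sp8 thus stood on opposite sides of 1.

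**Figure D5:**
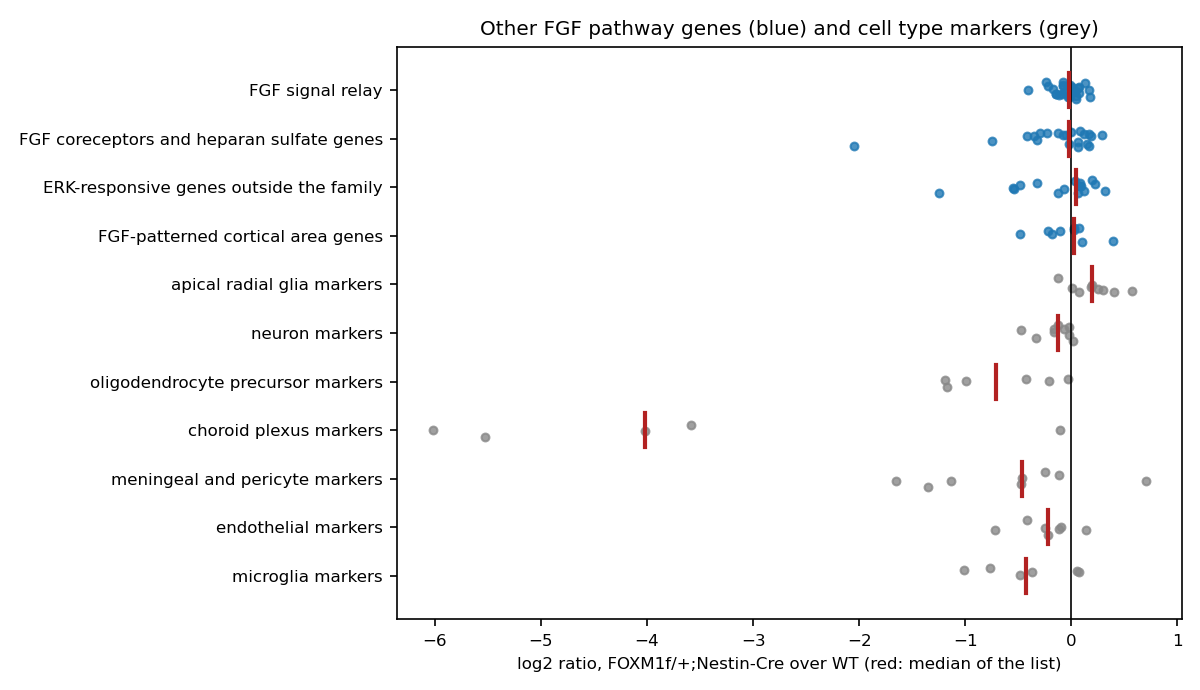
Log2 ratios, FOXM1f/+;Nestin-Cre over WT, of the genes that averaged 1 CPM or more in 4 further FGF pathway lists (blue) and 7 cell type marker lists (grey), with the median of each list in red. The pathway medians lie within 0.05 of 0 apart from single genes such as Sulf1 (-2.05), while choroid plexus markers reach -6.02 and apical radial glia markers have a median of 0.20.

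The authors' deposited table marked 3 of the 38 genes as significant, Fgf7, Fgf9 and Flrt1, beside 9.46% of all genes. Fgfr3 had the smallest p-value of the 38 in the authors' deposited table, 3.96e-26, and was not marked, with a fold change of 1.47. Those p-values compare 1 column with 1 column and hold no spread between embryos.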

How the data were processed

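RNA of E15 mouse brain was sequenced, and samples were grouped by the genotype label. Per the submitters' processing notes, Bowtie2 2.2.3, TopHat2 2.0.12 and HTSeq 0.6.0 were used with a genome given as mm9, yet 33 of the 38 genes have the start and end of GENCODE release M21 (GRCm38), so coordinates are given as GRCm38. Strand setting and multi-mapping were not given in the sources used here. Per the file headers, the authors deposited raw read counts and normalized values for 1 column per genotype. The deposited normalized values are CPM, with a count of 0 entered by the authors as 0.5 reads. The deposited fold change divides the CPM columns and comes with its log2 value, and the authors' p-values come from a test not named in those sources.

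Ratios used reads over the totals behind the CPM, 17859653 (transgenic) and 17547268 (WT), with exact conditional 95% intervals. The floor is 3 counts per library, 0.168 CPM (transgenic) and 0.171 CPM (WT). PCR copies cannot be told from separate molecules, so intervals and the floor cover counting error only. Merged exon lengths come from GENCODE M21, promoters from RefSeq. All 38 genes are named; from each list, up to 4 genes are named by log2 ratio over counting error, plus the one of highest CPM; some of these list genes are not reported here. Members and lists were chosen with earlier results of these data known. Alternatives were TMM and RLE scaling, other expression minimums, a 2-fold rule, sums without the top gene and shares per kilobase. Python 3.11.15, NumPy 2.4.6, pandas 2.3.3, SciPy 1.17.1, Matplotlib 3.10.9, R 4.3.3 and edgeR 4.0.16 (scaling factors only) were used.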

Additional observations from a re-analysis of the deposited data

How the results depend on the processing

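TMM and RLE scaling shifted all log2 ratios by 0.016 and 0.026. Each of the 30 ratios stayed within its counting interval, but RLE ended the Fgfr4 call, and 1 CPM in both libraries ended that of Fgf7, leaving 3. Intervals above 1 numbered 4 with TMM and 5 with RLE, and below 1, 7 with TMM and 6 with RLE, an alternative added after seeing the data. The Fgf genes' sum, near 0, turned to 0.011 with TMM. The count of genes past 1.5-fold depended on the rule. With no expression minimum it was 1 higher and 8 lower, with a mean of at least 10 CPM 0 lower, with a fold of 2 it was 1 lower, and by the counting interval 3 higher and 8 lower. For the log2 ratio of the Fgf genes' sum, the median of members gave -0.29, and the secreted ligands without Fgf15, chosen after seeing the data, gave -0.46. For the receptors, the median of members reversed the sum, at -0.064, the sum without Fgfr1 was 0.30 and that without Fgfr3, added after seeing the data, -0.072. Without the member with the most reads, the sum was 0.017 for binding proteins and Fgfrl1 and -0.27 for the Dusp genes. As shares of CPM per kilobase, the receptors took 39.1% (Fgfr1), 16.5% (Fgfr2), 43.3% (Fgfr3) and 1.03% (Fgfr4) in the transgenic library, and 46.1% (Fgfr1), 19.2% (Fgfr2), 33.0% (Fgfr3) and 1.76% (Fgfr4) in the WT library. These alternatives change which genes or lengths enter the value. The other 58 summary values stayed within the interval of the reported value or within 1.5 times the count, and some of those near 0 changed sign. No paired analysis was possible because each genotype has 1 column and the columns share no replicate number, and no replicate could be left out. Depth limits the 8 genes under 1 CPM, whose ratios are not bounded to within 2-fold.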
